A study of Rattus norvegicus with 42 samples.

Results

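Zbtb16 encodes PLZF, a zinc finger transcription factor, and was examined in livers of adrenalectomised rats infused with corticosterone (CORT) in pulses or at a constant rate. It was chosen by its measured pSer2 Pol2 values, which rose more over vehicle than those of any other gene, so those values are given here as a description, with no test. It is 1 of 26426 genes with pSer2 Pol2 regions, where it holds 2 of 60999 regions, and 1 of 22929 genes in the RNA counts, while 9 of the 3981 GR binding regions lie inside it or are centred within 150 kb of its transcription start site (TSS). All rats were male Sprague Dawley animals without adrenal glands, so the infusion set their circulating CORT. Before the infusion, all had received dexamethasone once after surgery and low CORT in the drinking water during recovery. CORT in a cyclodextrin carrier (0.0035 g per ml of the complex) was given intravenously either as hourly pulses of 20 min at 1 ml per h or constantly at 0.333 ml per h. Each ChIP-Seq library pooled 6 rats. By the paper's methods, chromatin aliquots of each replicate and group went to either GR or pSer2 Pol2, so these assays were not independent sets of rats. Each ChIP-Seq assay had 5 groups of 2 libraries. These were the third pulse peak at 140 min (PEAK_140), the following nadir at 180 min (NADIR_180), constant CORT for 140 min (CONS_140) or 180 min (CONS_180), and carrier without CORT, given in pulses (VEH, 1 library at 140 min and 1 at 180 min). RNA was measured at 180 min only, in 4 groups of 3 libraries, namely pulsatile CORT, constant CORT and a vehicle infused in each pattern. The labels do not say whether RNA libraries came from separate rats, so p-values measure the spread between these libraries.

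PLZF belongs to the BTB/POZ zinc finger family, whose members bind DNA through zinc fingers and recruit NCOR, SMRT and histone deacetylase complexes through the BTB domain to repress transcription. It is best known for its roles in natural killer T cells and in spermatogonial stem cells, and Zbtb16 is induced by glucocorticoids in many tissues. The glucocorticoid receptor (GR) is a ligand-activated transcription factor that binds glucocorticoid response elements (GREs), pairs of short inverted repeats separated by 3 bases. RNA polymerase II phosphorylated at serine 2 of its C-terminal repeats (pSer2 Pol2) marks polymerase that is elongating.

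In the rn6 assembly, Zbtb16 (ENSRNOG00000029980) lies on the minus strand of chromosome 8 with its TSS at 53146953. Both pSer2 Pol2 regions, one for the gene and one for the transcript ENSRNOT00000045356, cover the same 10 kb from the TSS, 53136953 to 53146953, and hold the same values. The GR regions are numbered here from upstream to downstream as sites 1 to 9. Site 1 (53171586 to 53172367) is intergenic, 25 kb upstream of the TSS. Site 2 (53135132 to 53135766) lies in intron 2 of 6, 11.5 kb into the gene. The other 7 sites are clustered within 25.1 kb, further into the gene. Sites 3, 4 and 5 lie in intron 2 at 66.4, 68.9 and 70.3 kb from the TSS, and sites 6, 7, 8 and 9 lie in intron 3 at 75.3, 77.8, 86.0 and 91.4 kb.

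The letters below come from the study's motif listing for these sites and describe the sequence under the measured GR signal. Each GRE string of 15 bases was joined here from 2 listed matches, so the whole string is not itself a listed match. Matches for 2 of the 9 sites, 2 and 7, were in the part of the listing used here, and the other sites were not analysed for letters. Capitals mark ACA and TGT, the core letters of the inverted repeats, and the strand is not given.
site 2 GRE: gggACAaagTGTacc
site 7 GRE: ggtACAgtgTGTtct
Site 2 also had matches listed for STAT5 (ttcccaggaaag) and for an androgen receptor element (tgtctctgggaa), and site 7 had one for FOXM1 (ggcagaacatcc). A listed match is a description of the letters and not a shown binding event.

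Total tags per library were 2051977 to 6715803 for GR and 4938473 to 9326927 for pSer2 Pol2, and RNA libraries held 3956379 to 7777219 reads. No pair of libraries held identical values, of 156 pairs compared. Summed over 7 hepatocyte markers, RNA was 103000 to 155000 CPM (reads scaled to an equal library size) in each library. NADIR_180 replicate 1 had a higher median GR value over all 3981 regions (1.33) than replicate 2 (-0.48).

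The pSer2 Pol2 values of Zbtb16 are a description only, since the gene was chosen by them. They were high in PEAK_140, CONS_140 and CONS_180, which restates that choice. At the pulse nadir they lay near the vehicle level. On the log2 scale of normalised tags, the VEH libraries had 3.96 at 140 min and 2.84 at 180 min. PEAK_140 had 9.77 and 9.73, and NADIR_180 had 5.21 and 2.89. CONS_140 had 10.46 and 10.08, and CONS_180 had 9.53 and 9.13. The 6 libraries of PEAK_140, CONS_140 and CONS_180 did not overlap the 4 of VEH and NADIR_180, whereas VEH and NADIR_180 overlapped. That overlap came from the 140 min VEH library, as the 180 min one lay below both NADIR_180 libraries. The SD of the NADIR_180 pair was 1.64, the largest of the 5 groups (0.03 to 0.79 in the others).

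**Figure D1:**
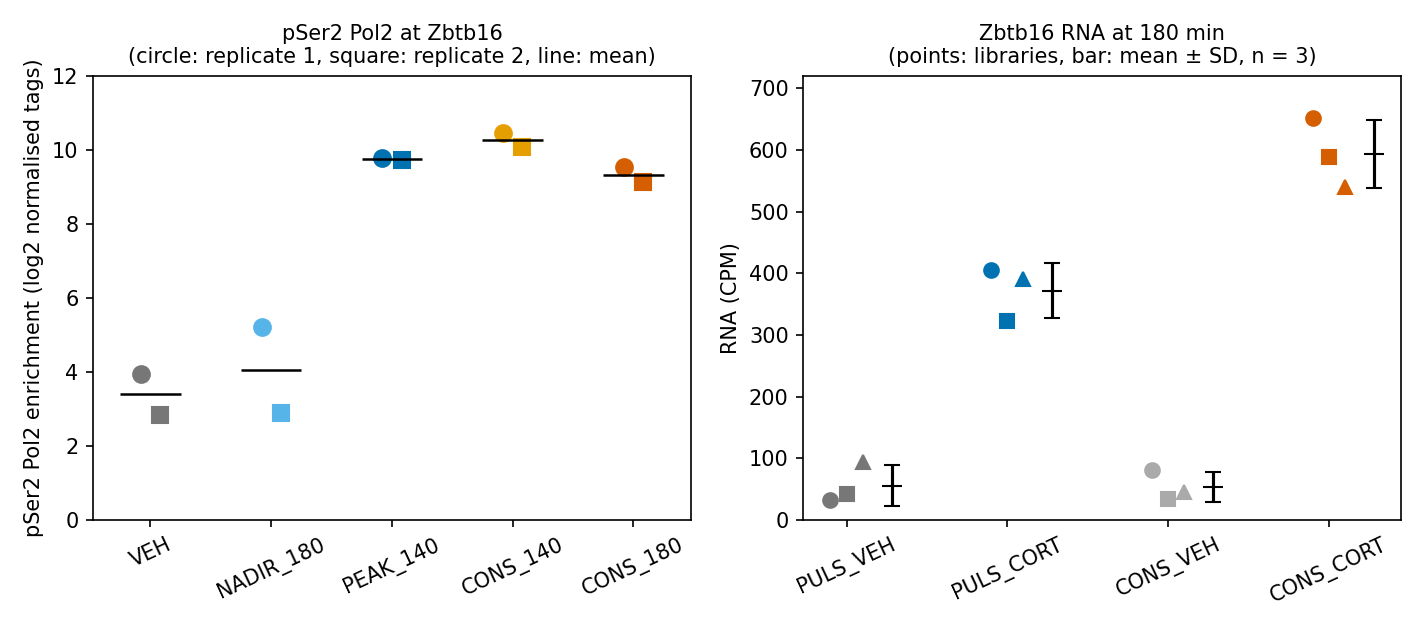
Left, pSer2 Pol2 at Zbtb16 in log2 normalised tags for each ChIP library (circle and square, replicates 1 and 2, or the 140 and 180 min libraries of VEH; line, mean). Right, RNA in CPM for each library, with mean ± SD of 3. PEAK_140, CONS_140 and CONS_180 lie between 9.13 and 10.46 in pSer2 Pol2 while VEH and NADIR_180 lie between 2.84 and 5.21, and the CORT groups of RNA lie above both vehicle groups.

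The difference of means from VEH was 6.35 in PEAK_140 (81.4-fold), 6.87 in CONS_140 (117-fold) and 5.93 in CONS_180 (60.9-fold), against 0.65 in NADIR_180 (1.57-fold). Zbtb16 ranked 1 of 16568 genes in the first 3 comparisons, and the next gene in each was Etnppl, an ethanolamine-phosphate phospho-lyase of lipid metabolism, at 5.34, 5.81 and 5.39. In NADIR_180 it ranked 569. These ranks restate how the gene was chosen. Within the pulsatile pattern the value fell by 5.70 from PEAK_140 to NADIR_180, and within the constant pattern the mean was 0.94 higher at 140 min than at 180 min. The pooled SD between replicates of Zbtb16 was 0.83. The values are drawn towards the mean of a region where tags are few, so the folds over VEH depend on that treatment and are not bounds.

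GR occupancy was then examined site by site. All 9 sites gained GR in PEAK_140, CONS_140 and CONS_180, and 1 of 9 passed the test at the pulse nadir. Changes were called with limma at an adjusted p below 0.05 (Benjamini-Hochberg, over all 3981 regions) and more than 1.5-fold. Because most GR regions gained GR with CORT, the share of all regions called raised is given beside each count. The regions are the authors' peaks merged over groups, and the 9 sites had peaks only in PEAK_140, CONS_140 and CONS_180. They thus entered through the groups where GR was high. Tests against VEH or NADIR_180, and of the change over time, therefore reuse that selection, and their adjusted p-values are not independent support. Against VEH, PEAK_140 raised 9 of 9 sites by 4.98 to 7.64 on the log2 scale (78.6% of all regions were raised), CONS_140 raised 9 of 9 by 3.78 to 7.68 (64.7%), and CONS_180 raised 9 of 9 by 4.17 to 7.21 (67.9%). The median change of the 9 sites was 5.70, 5.65 and 5.34 in these comparisons, against 4.17, 3.38 and 3.46 over all regions. In NADIR_180 the changes ran from 0.24 to 2.11 with a median of 1.28 (0.84 over all regions, 7.44% raised). Without NADIR_180 replicate 2, 5 of 9 sites were called at the nadir, and without NADIR_180 replicate 1, VEH replicate 1 or any single library of the other groups, 0 were.

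**Figure D2:**
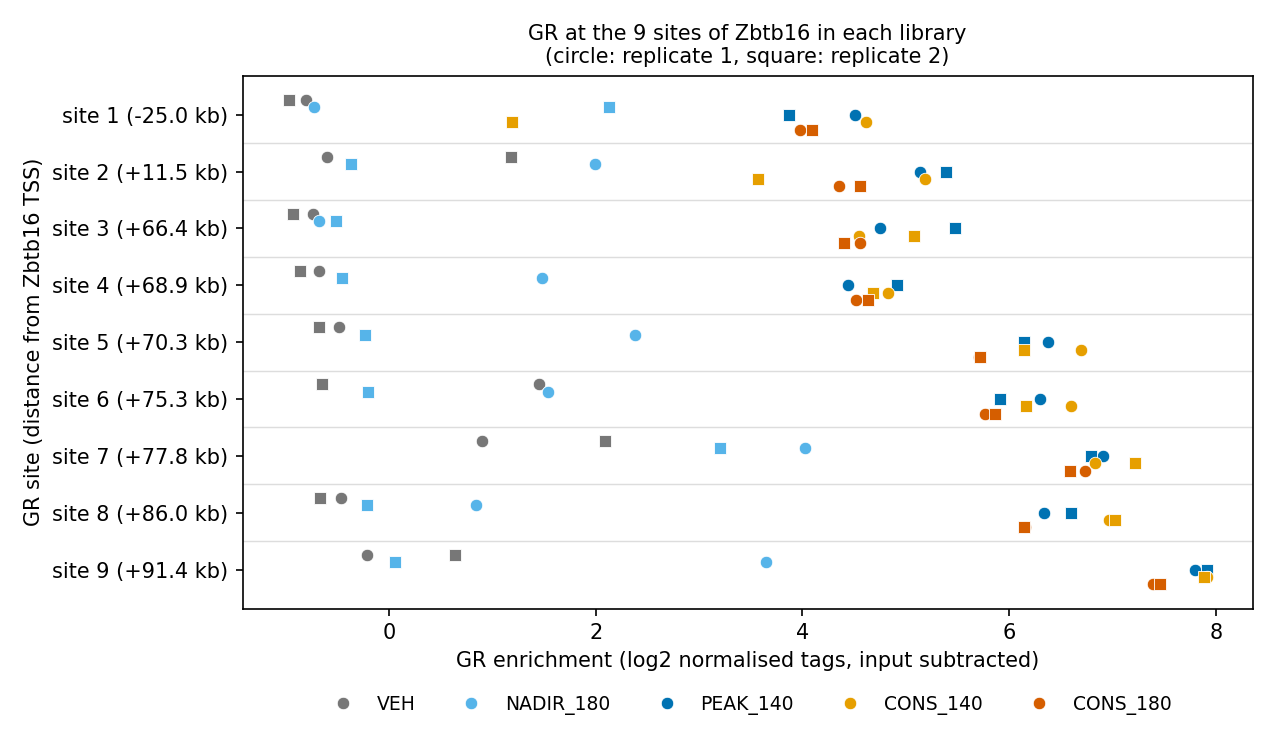
GR in log2 normalised tags (x axis) at the 9 Zbtb16 sites, 1 row per site with its distance from the TSS in kb, for each library of the 5 groups (circle and square, replicates 1 and 2, which for VEH are the 140 and 180 min libraries). PEAK_140, CONS_140 and CONS_180 lie well above VEH at sites 3 to 9, and site 1 has a low CONS_140 library at 1.19.

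Site 9, the farthest from the TSS, had the highest mean GR of the 9 sites in PEAK_140, CONS_140 and CONS_180, whereas site 7 had the highest in VEH (1.5) and NADIR_180 (3.61). Its VEH libraries had -0.21 and 0.64 and its NADIR_180 libraries 3.65 and 0.06. PEAK_140 had 7.80 and 7.91, CONS_140 had 7.91 and 7.88, and CONS_180 had 7.39 and 7.46. The 6 libraries taken when CORT was high lay above all VEH and NADIR_180 libraries. The change was 7.64 in PEAK_140 (SE 0.94, adjusted p = 0.00016), 7.68 in CONS_140 and 7.21 in CONS_180, and 1.64 in NADIR_180, where it was not called.

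Site 8 rose from -0.46 and -0.67 in VEH to 6.34 and 6.60 in PEAK_140, with 6.97 and 7.02 in CONS_140 and 6.15 and 6.14 in CONS_180. NADIR_180 had 0.84 and -0.21. The replicates were close in the 3 groups with high CORT, and the change in PEAK_140 was 7.04 (SE 0.50, adjusted p = 1.5e-05). Site 5 followed the same order, with -0.48 and -0.68 in VEH, 6.38 and 6.14 in PEAK_140, 2.38 and -0.23 in NADIR_180, 6.69 and 6.14 in CONS_140, and 5.71 and 5.72 in CONS_180. Among all regions, the changes of sites 5, 8 and 9 stood at the 97.1, 97.9 and 99.6 percentiles in PEAK_140 and at 97.9, 99.2 and 99.8 in CONS_180.

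Site 7, which holds the joined GRE letters ggtACAgtgTGTtct, was the site called raised at the nadir. It had 0.90 and 2.09 in VEH, 4.02 and 3.20 in NADIR_180, 6.91 and 6.79 in PEAK_140, 6.83 and 7.22 in CONS_140 and 6.73 and 6.59 in CONS_180. NADIR_180 thus lay between VEH and the other groups without overlap, with a change from VEH of 2.11 (SE 0.48, adjusted p = 0.029). That call was lost under centring and quantile scaling (log2 changes of 0.93 and 0.99). It was also lost with a constant variance (adjusted p = 0.10) and in a fit to the 4 libraries alone (adjusted p = 0.35).

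The sites nearest the TSS had the largest SEs. Site 2, with the joined GRE letters gggACAaagTGTacc, had -0.60 and 1.18 in VEH and 5.14 and 5.39 in PEAK_140. It had 1.99 and -0.37 in NADIR_180, 5.19 and 3.57 in CONS_140 and 4.35 and 4.56 in CONS_180. Site 1 had -0.80 and -0.97 in VEH, 4.51 and 3.87 in PEAK_140, -0.73 and 2.13 in NADIR_180, 4.61 and 1.19 in CONS_140 and 3.98 and 4.09 in CONS_180. At site 1, a NADIR_180 library lay above a CONS_140 library, and the change in PEAK_140 was 5.07 (SE 1.21, adjusted p = 0.0045). Sites 3, 4 and 6 were raised in PEAK_140 by 5.95, 5.44 and 5.70, with all 6 libraries at high CORT between 4.40 and 6.60. In VEH these sites ran from -0.93 to 1.45 and in NADIR_180 from -0.68 to 1.54.

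**Figure D3:**
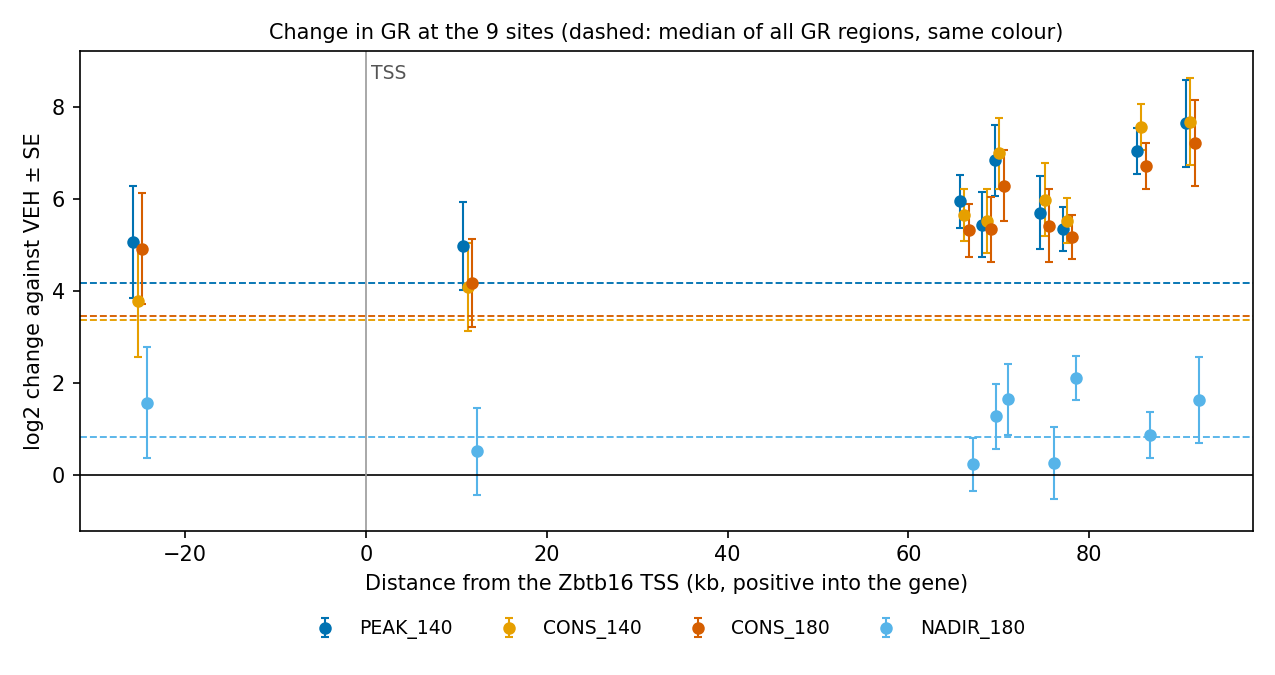
Fitted log2 change of GR against VEH at each of the 9 Zbtb16 sites with its SE, for PEAK_140, NADIR_180, CONS_140 and CONS_180, with the median of all 3981 regions. Changes at high CORT run from 3.78 to 7.68, and those at the nadir from 0.24 to 2.11.

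GR at the nadir was also compared with PEAK_140 and CONS_180 directly, but not with CONS_140. PEAK_140 exceeded NADIR_180 at 9 of 9 sites by 3.24 to 6.16 (68.8% of all regions, largest adjusted p among the sites 0.029), and CONS_180 exceeded NADIR_180 at 9 of 9 by 3.06 to 5.84 (49.6%, largest adjusted p 0.047). Between CONS_140 and CONS_180 limma called 0 of 9 (0.00% of all regions), with 0 at an unadjusted p below 0.05. The same was found between PEAK_140 and CONS_140, where 0 of 9 were called (0.0502% in either direction) and the differences ran from -0.53 to 1.29. The difference between PEAK_140 and NADIR_180 exceeded that between CONS_140 and CONS_180 at 8 of 9 sites (43.6% of all regions), by 2.88 to 5.53 over the 9, and site 1 did not pass (4.63, adjusted p = 0.055). That count was 3 without PEAK_140 replicate 1 or CONS_180 replicate 1 and 4 without CONS_180 replicate 2.

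These counts depend on how libraries are scaled, since the deposited values keep the gain of GR at most regions. With each library centred on its own median, 3 of 9 sites stayed called in PEAK_140, CONS_140 and CONS_180, and these were sites 5, 8 and 9 each time, at 2.22, 2.42 and 3.02 above the shift of all regions in PEAK_140 (adjusted p = 0.022, 0.019 and 0.015). Under that centring the difference between the time effects was called at 0 of 9 sites, and PEAK_140 against NADIR_180 at 1 of 9. At VEH, 7 sites in the 140 min library and 5 in the 180 min library lay near a lower edge, as did 2 and 7 in NADIR_180. Near means within 0.1 of the lowest value seen in the same library among regions of similar mean GR. Folds over VEH are therefore fitted values and not bounds.

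In the lists of GR peaks made for each group, all 9 sites were present for PEAK_140, CONS_140 and CONS_180 and none for NADIR_180 or VEH, a pattern shared by 31% of the 3981 regions. Few genes held as many GR regions. Of 2736 genes with a GR region assigned to them, 2008 had 1, while Alb (albumin) had 12 and AABR07027072.1 had 11, and AABR07072667.1 had 9 like Zbtb16.

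RNA was counted at 180 min, when pulsatile CORT was at its nadir. Zbtb16 RNA rose in both CORT patterns and stood highest with constant CORT. Reads were 177, 221 and 454 with pulsatile vehicle, and 662, 159 and 253 with constant vehicle. They were 2102, 1303 and 1568 with pulsatile CORT and 3204, 4181 and 3015 with constant CORT. Scaled to library size these were 56 ± 33.4 CPM and 53.9 ± 24 CPM in the pulsatile and constant vehicle groups, 372 ± 43.9 CPM with pulsatile CORT and 593 ± 55.5 CPM with constant CORT (SD, n = 3). The vehicle groups overlapped each other, and no CORT library overlapped a vehicle library. Likewise, the lowest constant CORT library (540 CPM) lay above the highest pulsatile CORT library (405 CPM).

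With edgeR's quasi-likelihood test, pulsatile CORT raised Zbtb16 RNA by 2.74 on the log2 scale (SE 0.33, 6.67-fold, adjusted p = 0.00015), where 1.79% of 14092 genes were called raised. Constant CORT raised it by 3.44 (SE 0.34, 10.9-fold, adjusted p = 5.1e-06), where 4.45% were called raised. Both calls remained in every alternative tried, each left-out library included. The constant response was 0.70 larger than the pulsatile one (SE 0.44), which did not pass the test (adjusted p = 0.54 with edgeR, 0.0284% of genes called). Between the CORT groups themselves the difference was 0.67 (SE 0.30, 1.59-fold), with an adjusted p of 0.43 by edgeR (0.617% of genes called raised). A fit to those 6 libraries alone called it, with an adjusted p of 0.013. The vehicle groups differed by -0.03 (SE 0.32, adjusted p = 0.99, with 0.00% of genes called).

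At 180 min the assays can be set side by side, although they came from different libraries. With constant CORT, pSer2 Pol2 was 9.33 ± 0.28 in log2 tags (SD, n = 2) and RNA was 593 CPM. With pulsatile CORT, pSer2 Pol2 was 4.05 ± 1.64 at the nadir, against 3.40 ± 0.79 in VEH, while RNA was 372 CPM against 56 CPM in the matched vehicle. Thus RNA stood 6.67-fold above vehicle in pulsatile CORT when the NADIR_180 libraries of pSer2 Pol2 had 5.21 and 2.89. VEH had 2.84 at 180 min and 3.96 at 140 min, so the overlap rested on the 140 min library. A return of pSer2 Pol2 to the vehicle level was not tested.

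By fold, Zbtb16 ranked 16 of the 252 genes raised in RNA by pulsatile CORT and 27 of the 627 raised by constant CORT. Its neighbours in the pulsatile order were Gpat3, a glycerol-3-phosphate acyltransferase (2.81, SE 0.32), Per1, a repressor of the circadian clock (2.74, SE 0.27), RGD1559482 (2.74, SE 0.74), Ccdc68 (2.69, SE 0.58) and Etnppl (2.66, SE 0.17), each closer to it than its own SE. RGD1559482 rested on few reads, with at least 4 in each CORT library. In the constant order its neighbours were Trim36 (3.49), AABR07042825.1 (3.48), LOC292543 (3.46), Msc, the transcription factor musculin (3.41), and AABR07044362.1 (3.37), with at least 7, 45, 3, 3 and 11 reads in each CORT library, against at least 3015 for Zbtb16.

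The genes whose values ran most like those of Zbtb16 were found by correlation over libraries, which largely restates the shared group structure and depth. Over the 10 pSer2 Pol2 libraries these were Por, the electron donor of cytochrome P450 enzymes (r = 0.985), Srsf4, a splicing factor (0.982), Nudt4 (0.982), AABR07044148.1 (0.981) and Mfsd2a, a lysophosphatidylcholine transporter (0.981). Over the 12 RNA libraries they were AABR07001382.1 (0.988), Trpa1, a cation channel (0.973), Cbs, cystathionine beta-synthase (0.972), Edem1, which acts in degradation of misfolded glycoproteins (0.971), and Cdkn1a, the cell cycle inhibitor p21 (0.968). For example, Por had in pSer2 Pol2 a change of 3.33 in PEAK_140 and -0.04 in NADIR_180, and its RNA changed by 1.68 with pulsatile and 2.71 with constant CORT. Mfsd2a had 3.09 in PEAK_140 and 0.47 in NADIR_180 in pSer2 Pol2 and 2.18 and 3.85 in RNA.

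Known targets of GR give the setting for these values. Of 30 such genes listed, 26 were tested in RNA, where 12 rose and 0 fell with pulsatile CORT (1.79% of all genes raised, 2.44% lowered) and 18 rose and 4 fell with constant CORT (4.45% raised, 4.75% lowered). Their median change was 0.92 and 1.59, against -0.01 over all genes in both. Lpin1, a phosphatidate phosphatase and transcriptional coregulator, rose by 3.05 with pulsatile and 4.26 with constant CORT, more than Zbtb16 in both. Sds, serine dehydratase of amino acid breakdown, rose by 3.02 and 4.11, and Per1 by 2.74 and 3.12. Those that fell with constant CORT were Pdk4, a kinase that restrains pyruvate oxidation (-1.22), Sgk1, a serum and glucocorticoid regulated kinase (-1.18), Per2, a clock repressor (-1.0), and Lcn2, an acute phase protein (-5.90). The Lcn2 value rested on constant vehicle replicate 2, with 630 reads against 10 in each of the other 2, and without that library it was -0.99 (adjusted p = 0.32).

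Between the CORT groups, 4 of the 26 listed targets were higher with constant CORT (0.617% of all genes), namely Lpin1 (1.11), Igfbp1, an insulin-like growth factor binding protein (2.42), Irs2, an insulin receptor substrate (1.70), and Ppargc1a, the gluconeogenic coactivator PGC-1α (1.86). Zbtb16 at 0.67 was not called in that fit. In pSer2 Pol2, 9 of the 30 targets rose and 1, Pdk4 at -2.03, fell in PEAK_140 (0.380% of genes raised, 0.634% lowered), 13 rose and 1 fell in CONS_140 (0.646% raised, 0.175% lowered), 6 rose in CONS_180 (0.181% raised) and 0 changed in NADIR_180 by limma (0.00604% in either direction). Tsc22d3, the anti-inflammatory mediator GILZ, rose by 4.16 and Cebpb, a bZIP transcription factor, by 3.88 in CONS_140, where the median over all genes was 0.16, and the Cebpb call was lost in 8 of 14 alternatives. These pSer2 Pol2 counts moved widely when single libraries were left out.

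**Figure D4:**
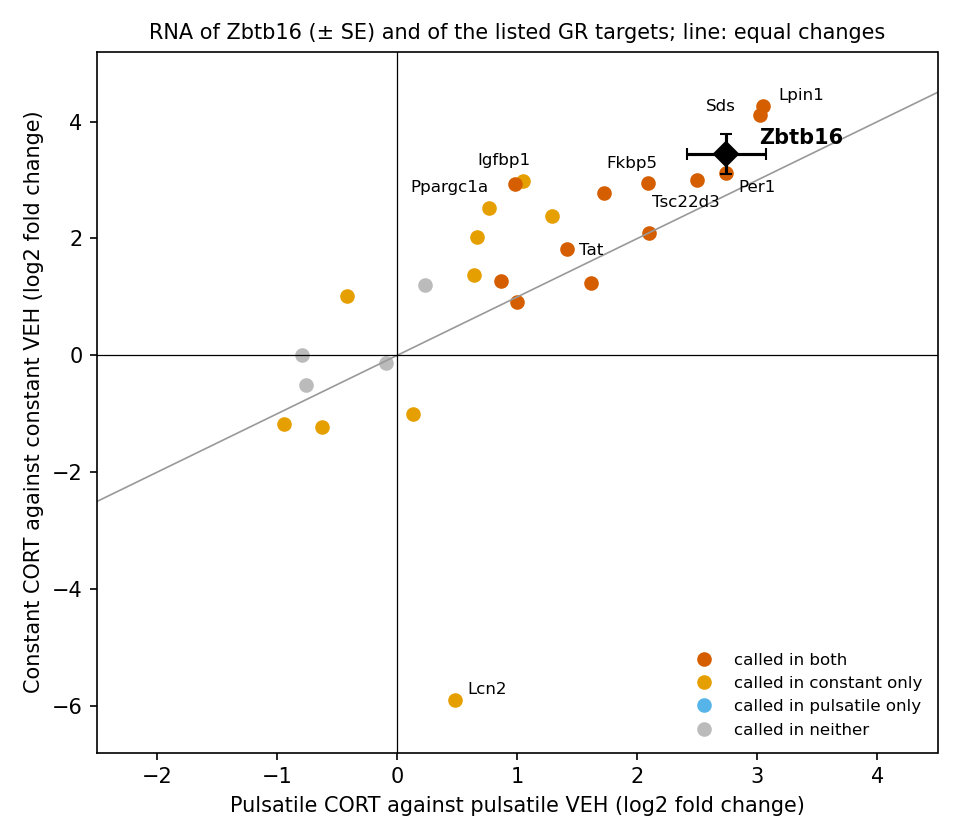
Log2 change in RNA with pulsatile CORT (x axis) and constant CORT (y axis), each against its own vehicle, for Zbtb16 (diamond, with SE) and the 26 tested GR targets, coloured by the responses in which they were called, with a line of equal changes. Zbtb16 lies at 2.74 and 3.44, below Lpin1 and Sds and close to Per1, and Lcn2 lies apart at -5.90 with constant CORT.

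The family and partners of PLZF were read in the same fits. Of 46 other BTB zinc finger genes listed, 34 were tested in RNA. With pulsatile CORT edgeR called 0 of them (1.79% of all genes raised, 2.44% lowered), and with constant CORT 1, Zbtb11, rose by 0.65 (SE 0.12; 4.45% raised, 4.75% lowered). In pSer2 Pol2, Zbtb45 rose by 2.53 in CONS_140 (0.646% of all genes raised, lost in 4 of 14 alternatives), and no other of the 44 tested was called in the 4 comparisons with VEH. Of 25 listed PLZF partners and corepressors, 23 were tested in RNA, and Tbl1xr1, a component of NCOR and SMRT complexes, fell by 0.75 with pulsatile CORT (adjusted p = 0.028, 2.44% of all genes lowered), a call lost without pulsatile CORT replicate 2 or 3 (-0.67 and -0.69) or without any one pulsatile vehicle library (-0.74 to -0.75). With constant CORT 0 of the 23 passed (4.45% of all genes raised, 4.75% lowered), and 0 of the 23 tested in pSer2 Pol2 passed against VEH. Over all genes in pSer2 Pol2, 0.380% were raised and 0.634% lowered in PEAK_140, and 0.646% and 0.175% in CONS_140. Counts of 0 among so few genes lie near these shares. With the replicate block, 2 BTB family genes and 1 partner were called in CONS_140.

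Because gluconeogenesis is a main hepatic process under glucocorticoid control, its 16 listed genes and regulators were examined too. Some of them, Ppargc1a included, are also among the listed GR targets, so the RNA counts of these lists are not separate results. With each gene counted once, 16 genes of the 4 lists were called in RNA with pulsatile and 26 with constant CORT. Of 15 gluconeogenic genes and regulators tested in RNA, 6 rose with pulsatile CORT (1.79% of all genes raised, 2.44% lowered) and 7 with constant CORT (4.45% raised, 4.75% lowered), and 0 fell. Their median change was 0.18 and 0.40, against -0.01 over all genes. With constant CORT, Ppargc1a rose by 2.93, Tat, tyrosine aminotransferase, by 1.82, Foxo1, a forkhead factor restrained by insulin, by 1.82, and Klf15, a Krüppel-like factor, by 1.69. In pSer2 Pol2, Foxo1 (2.57) and Klf15 (1.77) were the 2 raised of 16 in CONS_140 (0.646% of all genes raised), calls lost in 7 and 10 of 14 alternatives.

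Genes around Zbtb16 within 500 kb were read in the same fits. None of those with a TSS within 150 kb was called. Usp28, a deubiquitinase, changed by -0.25 with pulsatile and -0.41 with constant CORT (adjusted p = 0.38 and 0.077), and the serotonin receptor subunit genes Htr3a and Htr3b had 0 reads in the 12 libraries. Nnmt, nicotinamide N-methyltransferase, was picked out after its values were seen. With its TSS 209.0 kb downstream, it rose by 1.40 in RNA with constant CORT (SE 0.23, adjusted p = 0.00067) and had 0.83 with pulsatile CORT (SE 0.24, adjusted p = 0.051), which was called in 9 of 16 alternatives. Its pSer2 Pol2 values were 6.03 and 4.68 in VEH, 8.11 and 8.30 in PEAK_140, 6.72 and 6.32 in NADIR_180, 7.68 and 7.51 in CONS_140 and 8.09 and 8.05 in CONS_180. The 6 libraries at high CORT lay above the other 4, and limma called Nnmt in PEAK_140 (2.85, adjusted p = 0.0088), CONS_140 (2.24, adjusted p = 0.036) and CONS_180 (2.72, adjusted p = 0.032). Those calls were lost in 7, 9 and 10 of 14 alternatives. Nnmt had 2 GR regions of its own, centred 28 and 8332 bases from its TSS, of which the nearer was called raised in PEAK_140 (4.44), CONS_140 (2.95) and CONS_180 (4.52), where 78.6%, 64.7% and 67.9% of all regions were. The farther was called raised in PEAK_140 (2.66, adjusted p = 0.011) and CONS_140 (2.81, adjusted p = 0.011), and had 1.86 in CONS_180 (adjusted p = 0.055). The other measured neighbours were not called in RNA. Of these, AABR07070117.1 changed by 0.56 with pulsatile CORT (SE 0.12, edgeR adjusted p = 0.013), which fell short of the 1.5-fold threshold only. With constant CORT it changed by 0.20 (adjusted p = 0.32).

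**Figure D5:**
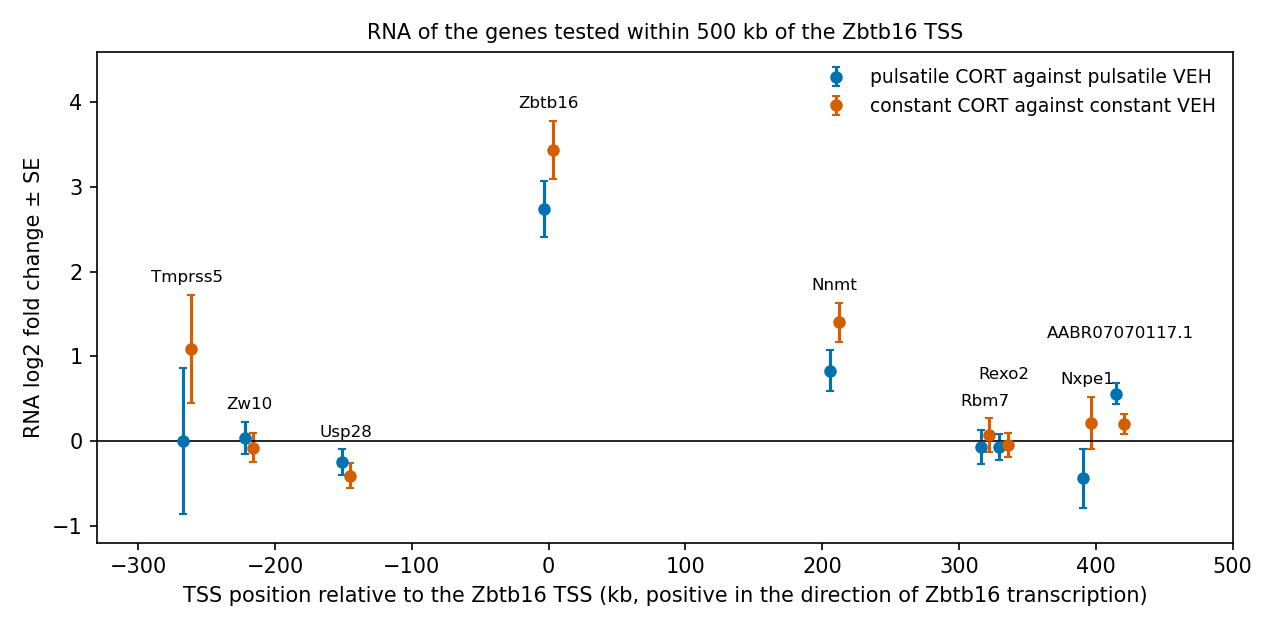
Log2 change in RNA with pulsatile and constant CORT (y axis, with SE) for Zbtb16 and the tested genes within 500 kb, plotted by distance of their TSS from that of Zbtb16 in kb, downstream positive. Zbtb16 stands at 2.74 and 3.44, and Nnmt at 209.0 kb is the next highest with constant CORT among the genes called.

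Whole liver holds other cells, and in bulk samples fewer cells of a type and less RNA per cell cannot be told apart. As PLZF is known from innate-like lymphocytes, markers of T, natural killer T and innate lymphoid cells were summed. Of 12 listed, 6 were tested (Cd247, Gata3, Il2rb, Nkg7, Ptprc and Tbx21). Their sum was 52.0 to 73.8 CPM with pulsatile vehicle, 55.9 to 83.1 with constant vehicle, 43.5 to 62.2 with pulsatile CORT and 43.3 to 57.9 with constant CORT. Of the 6, 0 were called, where 1.79% of all genes were raised and 2.44% lowered with pulsatile CORT. With constant CORT these shares were 4.45% and 4.75%, so 0 of 6 lies near the background. The ranges of the 4 groups overlapped, and the part of these cells in the Zbtb16 result was not tested. Summed markers of Kupffer cells ran from 326 to 591 CPM, of stellate cells from 419 to 663, of endothelial cells from 271 to 376 and of cholangiocytes from 10.5 to 19. The stellate sum was lowest with constant CORT (419 to 464), where Pdgfrb changed by -1.29 and Dcn by 1.16, and its part in the Zbtb16 result was not tested. Of the 7 hepatocyte markers, 2 were called raised and 0 lowered in each response (1.79% and 4.45% of all genes raised). These were the urea cycle genes Cps1 (0.97 with pulsatile, 1.18 with constant CORT) and Ass1 (1.18 and 1.02). The other markers were not called and changed in both directions.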

How the data were processed

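GR and pSer2 Pol2 ChIP-Seq (10 libraries each, 6 rats per library) and RNA-Seq (12 libraries) of rat liver were used. Per the paper's methods, the authors aligned ChIP reads to rn6 with bowtie2, removed duplicates, called peaks over input and tested reproducibility between replicates with HOMER 4.9.1 and IDR, and deposited normalised log2 values with input tags subtracted. These log2 values are drawn to a region's mean where tags are few. The methods scale GR to tags in binding regions, whereas a file header describes total tags. pSer2 Pol2 was counted within 10 kb of each TSS. For RNA, the authors deposited exonic read counts from featureCounts 1.6.2 on Rnor_6.0, from a stranded kit. The strand setting and the aligner's role are not given in the sources used here (the submitters' processing notes name STAR). Peak positions were taken as deposited, and the authors' fold change and p-value columns were not used.

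Log2 values were fitted with limma 3.58.1 (variance trend, 5 groups of 2, all 10 libraries). Counts were fitted with edgeR 4.0.16 (quasi-likelihood, TMM, 4 groups of 3, genes with more than 10 reads over 12 libraries) in R 4.3.3. Of 22929 RNA rows, 22747 carried a gene name, and 14092 genes were tested. For pSer2 Pol2, 38315 regions held tags, which gave 16568 genes. P-values were adjusted by Benjamini-Hochberg over all features, and a call needed an adjusted p below 0.05 and more than 1.5-fold (log2 0.585). Scripts were tested on simulated data. Zbtb16, its GR regions and the gene lists were chosen with earlier results of these data known. Of each list, the 4 called genes with the largest changes per assay were named, with genes whose TSS lies within 150 kb, the 5 genes best correlated with Zbtb16 per assay and those ranked beside it. Members of counts of 5 or fewer and list genes named in several comparisons were chosen after their values were seen. The 2 VEH libraries were a 140 and a 180 min sample. Same-numbered replicates deviated together in pSer2 Pol2 (6 of 6 pairs of groups, r = 0.155 to 0.553), for a reason that was not tested. No label pairs replicates across groups, so the main fit has no block and a replicate block is given as an alternative. Alternatives were other scalings (library median, quantile, DESeq2 1.42.0), filters, variance models, fewer groups, a replicate block and each library left out. No genome was used, and sequences came from the study's motif listing, with each GRE string joined from 2 listed matches.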

Additional observations from a re-analysis of the deposited data

Results flagged for a closer look

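The fall in GR from 140 to 180 min was larger under pulsatile than under constant CORT at 8 of the 9 Zbtb16 sites by the test of that difference itself (limma, log2 scale). Sites 2, 3, 4 and 5 had differences of 4.53, 5.37, 3.98 and 4.48 (adjusted p = 0.028, 0.0047, 0.016 and 0.015). Sites 6, 7, 8 and 9 had 4.87, 2.88, 5.31 and 5.53 (adjusted p = 0.013, 0.014, 0.0038 and 0.015). Over all GR regions, 43.6% passed in this direction. With libraries centred on their medians, 0 of the 9 sites passed. The sites had GR peaks only in PEAK_140, CONS_140 and CONS_180, so this test reuses how they were selected.

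Ppargc1a RNA responded more to constant than to pulsatile CORT, by 1.95 on the log2 scale (edgeR, adjusted p = 0.032). The call was lost when any one of 7 libraries was left out, namely constant CORT replicates 1 and 3, constant vehicle replicates 2 and 3, pulsatile CORT replicates 2 and 3 and pulsatile vehicle replicate 2 (1.77 to 2.01, adjusted p = 0.062 to 0.11). Zbtb16 RNA had 0.70 in the same test (adjusted p = 0.54).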

How the results depend on the processing

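Zbtb16 RNA stayed called in both responses when single libraries were left out (pulsatile 2.46 to 3.33, constant 3.22 to 3.87). The difference of the responses ran from 0.11 to 1.13, that between the CORT groups from 0.58 to 0.74 (0.67 and called in a fit to 6 libraries), and that between the vehicle groups from -0.46 to 0.56, turning positive without CONS_VEH replicate 2 (0.19), CONS_VEH replicate 3 (0.07) or PULS_VEH replicate 3 (0.56).

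In pSer2 Pol2, left-out libraries moved the Zbtb16 difference from VEH between 5.79 and 6.91 (PEAK_140), 6.31 and 7.43 (CONS_140), 5.37 and 6.49 (CONS_180), and -0.51 and 1.81 (NADIR_180). Against NADIR_180, PEAK_140 ran from 4.54 to 6.86 and CONS_180 from 4.12 to 6.44, and the difference between time effects from 3.60 to 5.91. Both extremes came from leaving out a NADIR_180 library. The gene was chosen by its pSer2 Pol2 values, so these ranges describe them and are not support.

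GR sites called, of 9, after centring libraries were 3 in PEAK_140, CONS_140 and CONS_180, 0 in NADIR_180, 1 for PEAK_140 against NADIR_180, 0 for CONS_180 against NADIR_180 and 0 for the time effects. After quantile scaling they were 5 in PEAK_140 and CONS_140, 0 in NADIR_180, 4 for each contrast with NADIR_180 and 0 for the time effects. The NADIR_180 count was 0 without the variance trend and with 4 libraries only, and 0 to 5 with left-out libraries. The other counts ran with left-out libraries from 9 to 9 (PEAK_140, CONS_180), 8 to 9 (CONS_140, PEAK_140 against NADIR_180), 7 to 9 (CONS_180 against NADIR_180) and 3 to 9 (time effects). Signs turned after centring at NADIR_180 sites 2, 3, 6 and 8 (-0.66, -0.94, -0.91, -0.30), CONS_140 sites 1 and 2 (-0.33, -0.02) and site 7 for the time effects (-0.51). After quantile scaling they turned at NADIR_180 sites 2, 3, 6 and 8 (-0.51, -0.13, -0.87, -0.38). They also turned at site 2 without VEH replicate 1 (-0.37), at site 6 without VEH replicate 2 (-0.78), and at sites 2, 6 and 9 without NADIR_180 replicate 1 (-0.66, -0.60, -0.16), with ranges over left-out libraries of -0.66 to 1.70 (site 2), -0.78 to 1.32 (site 6) and -0.16 to 3.43 (site 9). The cause of these shifts beyond the rescaling itself was not tested.

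Over the 4 gene lists, RNA calls for the difference of responses were 1 (6 with no filter, 5 with DESeq2, 0 to 4 with left-out libraries), between CORT groups 5 (13, 11 and 2 to 9) and between vehicles 0 (1 with no filter, 0 to 1). pSer2 Pol2 calls were 10 in PEAK_140 (16 centred, 18 quantile, 2 to 6 with left-out libraries), 17 in CONS_140 (2 to 34) and 6 in CONS_180 (12 centred, 13 quantile, 3 without the trend, 0 to 4). Over all genes, raised and lowered calls in PEAK_140 were 63 and 105, or 135 and 207 centred and 182 and 196 by quantile. In CONS_140 they were 107 and 29, or 187 and 100 centred and 163 and 163 by quantile, and in CONS_180 30 and 9, or 90 and 43 and 105 and 65.

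With the replicate block, Zbtb16 RNA changed by 2.76 and 3.49 and no call on it changed, while list calls between CORT groups were 8. In GR and RNA, same-numbered replicates did not deviate together (r = -0.027 to 0.072 and -0.049 to 0.081). Such low correlations cannot show that these replicates had no handling in common. In pSer2 Pol2, where same-numbered replicates deviated together though no label pairs them, calls over all genes went from 136 to 227 in CONS_140 and from 39 to 63 in CONS_180. Tag depth and 2 libraries per ChIP group limit the differences that could be detected.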
